A study of Mus musculus with 26 samples.

Results

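The 10 genes described here encode enzymes of ceramide and sphingolipid synthesis: Sptlc1, Sptlc2, Sptlc3, Cers2, Cers4, Cers5, Cers6, Degs1, Sgms1 and Ugcg. They were taken by symbol from 2 gene count tables, one for adipocytes and one for stromal vascular cells (SVC), and all 10 were found once among the 39017 genes of each table. The RNA came from epididymal fat of male C57BL/6J mice that started the diets at 9 to 10 weeks of age. Lean mice (LFD) ate a 10% fat diet for 12 weeks, obese mice (HFD) a 60% fat diet for 12 weeks, and formerly obese mice (SW) the 60% fat diet for 9 weeks and then the 10% fat diet for 3 weeks. The labels name no transgene and no drug for any group. Collagenase digestion and centrifugation gave the floating adipocytes and the pellet of SVC. The 9 adipocyte libraries hold 3 per diet, and the 6 SVC libraries used hold 1 of LFD, 2 of HFD and 3 of SW mice, while the labels list 3 of each diet.

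De novo synthesis of sphingolipids starts at the endoplasmic reticulum, where serine palmitoyltransferase joins serine to palmitoyl-CoA. Sptlc1 is the obligate subunit of this enzyme, and Sptlc2 or Sptlc3 is its catalytic partner. The product is reduced by Kdsr, ceramide synthases of the Cers family then attach a second fatty acid whose chain length depends on the synthase, and Degs1 introduces the double bond that makes ceramide. Cers2 prefers very long acyl chains, whereas Cers5 and Cers6 make mainly C16 ceramide. Ceramide is then passed to the Golgi, where Sgms1 makes sphingomyelin and Ugcg makes glucosylceramide, the first glycosphingolipid. In adipose tissue, ceramides are known as inhibitors of insulin signalling.

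Library totals ran from 5781902 to 23725647 estimated counts, with the smallest libraries in the LFD groups. Levels are CPM, a gene's counts per library total after TMM adjustment within a fraction, and a change is called at an adjusted p under 0.05 in edgeR's quasi-likelihood test, adjusted over all genes tested. SW adipocyte library 407 stood apart from 408 and 409 (chi-square per degree of freedom between counts 89.5 and 80.4, against 12.8 between 408 and 409), and the SVC libraries of HFD mice stood apart from each other, as given with the SVC results. Both fractions held RNA of other cell types. The summed level of 9 adipocyte markers was 32628 to 51307 CPM in LFD, 11825 to 19813 CPM in HFD and 28185 to 29259 CPM in SW adipocytes, against 630.0 to 1268 CPM in the SVC. The summed level of 11 macrophage markers was 756.8 to 1233 CPM in LFD, 8565 to 9932 CPM in HFD and 6301 to 9428 CPM in SW adipocytes. All 11 macrophage markers were called higher, and 7 of the 9 adipocyte markers lower, in HFD than in LFD adipocytes, and no marker of either list was at 0 in any library. Against LFD, SW adipocytes had all 11 macrophage markers called higher but only 1 of the 9 adipocyte markers called lower. These shifts moved with the adipocyte differences between LFD and the other diets given below, and their part in them was not tested. Between SW and HFD adipocytes 4 of the 11 macrophage markers were called lower and 5 of the 9 adipocyte markers higher, with medians of log2 -0.36 and 0.83, and their part in the differences between those diets was not tested either. In these bulk samples, fewer cells of a type and less RNA per cell cannot be told apart.

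The promoters of 3 members are shown, 1 per branch point of the results, because their HFD to LFD difference in adipocytes passed the threshold under every alternative setting and they have a single annotated start. Sptlc2 opens the pathway and rose, Cers6 rose most clearly, and Ugcg fell. The sequences are the 250 bases before the RefSeq start on GRCm38.p6, a later build than the one named for the counts, at chr2:68861191-68861440 on the plus strand for Cers6, chr12:87388356-87388605 on the minus strand for Sptlc2 and chr4:59189300-59189549 on the plus strand for Ugcg. Capitals mark the E-box letters CACGTG, the GC-box letters GGGCGG, the box CCAAT and the TATA letters TATAAA, each on either strand.
Cers6: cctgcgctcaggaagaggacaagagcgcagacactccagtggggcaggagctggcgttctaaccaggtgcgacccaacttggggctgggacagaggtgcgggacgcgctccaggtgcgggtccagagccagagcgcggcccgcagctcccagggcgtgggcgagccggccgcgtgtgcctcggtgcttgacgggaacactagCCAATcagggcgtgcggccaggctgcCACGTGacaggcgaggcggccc
Sptlc2: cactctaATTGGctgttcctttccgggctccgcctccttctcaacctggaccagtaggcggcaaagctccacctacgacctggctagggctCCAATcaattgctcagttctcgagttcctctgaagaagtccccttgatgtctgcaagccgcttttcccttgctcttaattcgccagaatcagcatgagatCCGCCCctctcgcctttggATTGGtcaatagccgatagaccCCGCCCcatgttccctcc
Ugcg: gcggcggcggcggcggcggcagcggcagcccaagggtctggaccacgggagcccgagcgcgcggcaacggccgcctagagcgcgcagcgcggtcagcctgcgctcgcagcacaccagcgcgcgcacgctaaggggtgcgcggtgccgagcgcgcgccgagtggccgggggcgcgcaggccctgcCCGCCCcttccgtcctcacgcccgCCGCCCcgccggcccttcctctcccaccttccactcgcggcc
All 10 members matched, with 14 such windows since Cers2 and Sgms1 have several starts. CACGTG was in 3 of the 14 windows (Cers2, Cers6 and Degs1) and in 6.02% of 32851 mouse promoter windows of the same length. GGGCGG was in 8 of the 14 windows against 32.7%, CCAAT in 5 against 33.8%, and TATAAA in none against 12.4%. These are matches of letters and not shown binding sites.

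In adipocytes, 7 of the 10 members were called between HFD and LFD mice, beside 51.5% of the 14461 genes tested. Cers6, Sptlc3, Sgms1, Sptlc2 and Cers2 were higher in HFD mice and Ugcg and Cers4 were lower. The 5 higher members stand beside 26.5% of all genes called higher, and the 2 lower ones beside 25% called lower. The median log2 fold change was 0.15 over the members and -0.03 over all genes. For 8 members all HFD values lay on one side of all LFD values, which was so for 62.7% of all genes.

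**Figure D1:**
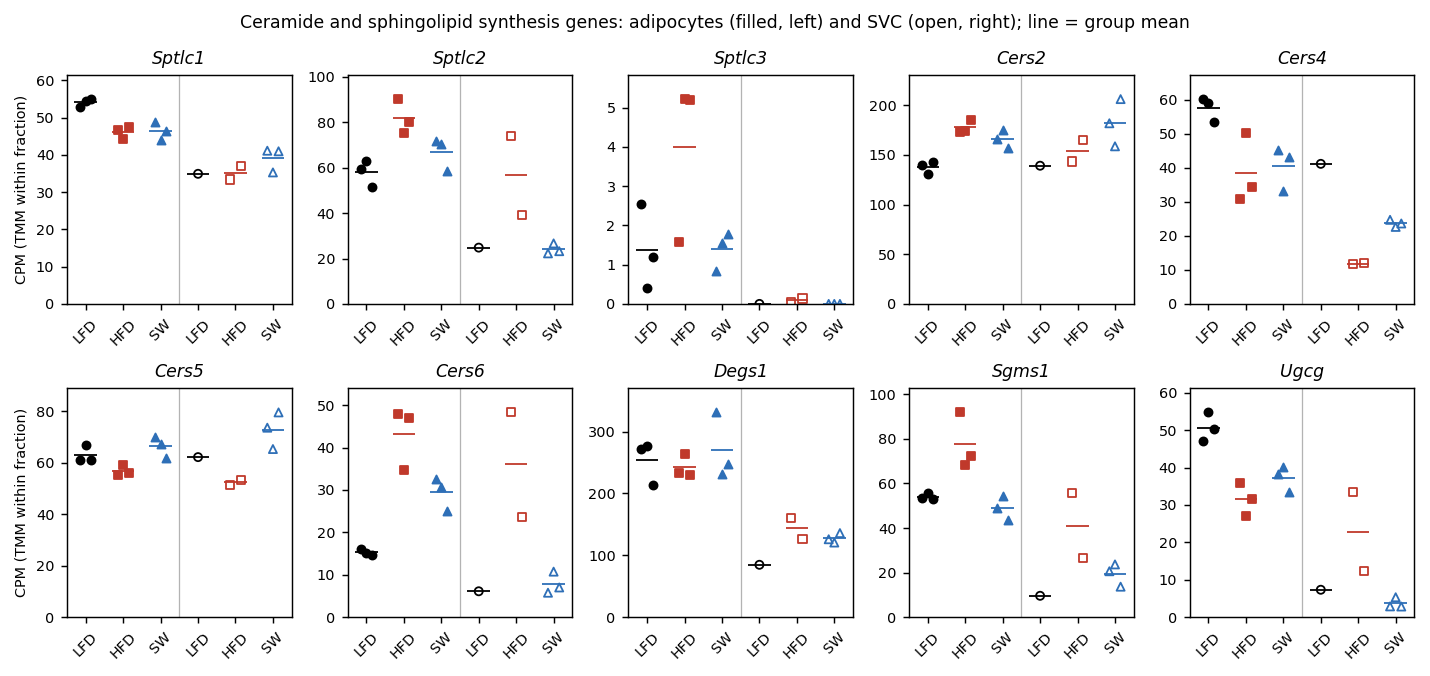
CPM of each member (y axis, from 0, own scale per gene) in every library, by diet, with adipocytes as filled and SVC as open symbols and group means as lines. Cers6 rose from 14.8 to 16.0 CPM in LFD to 34.7 to 47.9 CPM in HFD adipocytes, and the SVC libraries held 0 to 2 counts of Sptlc3.

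Of the serine palmitoyltransferase subunits, Sptlc2 and Sptlc3 were called higher in HFD than in LFD adipocytes and Sptlc1 was not called. Sptlc2 measured 59.6, 62.9 and 51.4 CPM in the LFD libraries, 90.2, 75.4 and 80.0 CPM in HFD and 71.8, 70.5 and 58.5 CPM in SW adipocytes. Every HFD library lay above every LFD and SW library, and SW overlapped with LFD. The rise from LFD to HFD was 1.41-fold (log2 0.49, standard error 0.13, adjusted p = 0.00877). The SW to HFD difference, log2 -0.29, did not pass (adjusted p = 0.101), nor did SW to LFD, log2 0.20 (adjusted p = 0.305).

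Sptlc1, the partner that both catalytic subunits need, measured 53.0, 54.5 and 55.0 CPM in LFD, 46.6, 44.3 and 47.4 CPM in HFD and 48.9, 44.0 and 46.4 CPM in SW adipocytes. The LFD libraries lay above all 6 others, but neither HFD nor SW alone passed the threshold against LFD (log2 -0.23, adjusted p = 0.0577, and log2 -0.22, adjusted p = 0.13). Against HFD and SW together the difference of log2 -0.23 passed (adjusted p = 0.0442), and it did so in 4 of 15 alternatives. The HFD to LFD difference of Sptlc1 was called lower in only 1 of 13 alternatives, that with upper-quartile scaling (adjusted p = 0.0125).

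Sptlc3, the catalytic subunit that makes sphingoid bases of other lengths, was scarce and uneven. It measured 2.54, 0.413 and 1.19 CPM in LFD (16, 8 and 9 counts), 1.58, 5.22 and 5.19 CPM in HFD (21, 125 and 116 counts) and 0.841, 1.56 and 1.79 CPM in SW adipocytes (8, 26 and 25 counts). One HFD library lay within the LFD range and the other two lay well above it. The fitted HFD to LFD difference was log2 1.75 (standard error 0.63, adjusted p = 0.0407). It no longer passed without HFD library 402 or 403 or LFD library 405 or 406, with adjusted p between 0.102 and 0.153. The SW to HFD difference, log2 -1.5, did not pass (adjusted p = 0.0738).

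Per kilobase of the longest annotated transcript, Sptlc1 made up 69.5% ± 2.50 (SD, n = 3) of the summed level of the 3 subunits in LFD adipocytes, 56.5% ± 0.417 in HFD and 63.0% ± 2.56 in SW. Sptlc2 made up 28.8% ± 2.34, 38.9% ± 2.83 and 35.2% ± 2.81 of that sum in the same order, and Sptlc3 1.67% ± 1.29, 4.65% ± 2.48 and 1.81% ± 0.705. The HFD and LFD libraries did not overlap in the shares of Sptlc1 and Sptlc2. The order of the subunits depends on length, as the longest transcript is 6.71 kb for Sptlc2 and 2.606 kb for Sptlc1. By counts not divided by length, Sptlc2 held a larger share than Sptlc1 in every adipocyte library but LFD library 406. An exact permutation test of 3 against 3 libraries cannot go below 0.1, so no share can pass a threshold.

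Ceramide synthases changed in both directions. Cers6 measured 16.0, 15.1 and 14.8 CPM in LFD, 47.9, 34.7 and 47.1 CPM in HFD and 32.5, 30.8 and 25.1 CPM in SW adipocytes. The 3 diets did not overlap, with SW between the others. Cers6 was 2.83-fold higher in HFD than in LFD mice (log2 1.50, standard error 0.16, adjusted p = 5.48e-05). In SW mice it was lower than in HFD mice (log2 -0.55, standard error 0.15, adjusted p = 0.0217) and 1.93-fold higher than in LFD mice (log2 0.94, standard error 0.16, adjusted p = 0.00258). The SW to HFD call was lost without HFD library 401 or 403 or SW library 409, with adjusted p from 0.0682 to 0.0865.

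Cers2 measured 139.7, 130.3 and 142.8 CPM in LFD, 173.3, 174.6 and 185.3 CPM in HFD and 166.3, 175.2 and 156.8 CPM in SW adipocytes. Both HFD and SW libraries lay above all LFD libraries. The HFD to LFD rise was 1.29-fold (log2 0.37, standard error 0.11, adjusted p = 0.0153), and the SW to LFD difference of log2 0.27 did not pass (adjusted p = 0.11). The HFD call was lost without HFD library 403 (adjusted p = 0.0667), without LFD library 405 (adjusted p = 0.068) and with upper-quartile scaling (adjusted p = 0.0544).

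Cers4 measured 60.3, 59.2 and 53.4 CPM in LFD, 30.7, 50.4 and 34.3 CPM in HFD and 45.4, 33.2 and 43.2 CPM in SW adipocytes. All LFD libraries lay above the other 6, and HFD and SW overlapped. It was lower in HFD than in LFD mice (log2 -0.58, standard error 0.19, adjusted p = 0.0261), and the SW to LFD difference of log2 -0.51 did not pass (adjusted p = 0.0951). Without HFD library 401 or 403 or LFD library 404 or 405 the HFD call was lost, with adjusted p from 0.064 to 0.0909.

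Cers5 measured 61.0, 66.9 and 61.1 CPM in LFD, 55.4, 59.1 and 56.2 CPM in HFD and 70.1, 67.4 and 61.7 CPM in SW adipocytes. HFD was the lowest group without overlap, yet none of the 3 differences passed (HFD to LFD log2 -0.15, adjusted p = 0.226; SW to HFD log2 0.22, adjusted p = 0.103).

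Cers2 was the leading synthase per kilobase, with 66.7% ± 2.07 of the summed level of the 4 synthases in LFD, 72.3% ± 0.917 in HFD and 69.8% ± 1.35 in SW adipocytes (SD, n = 3). Cers5 held 24.4% ± 1.72, 18.5% ± 0.792 and 22.3% ± 0.646 in the same order. The share of Cers6 was 2.34% ± 0.101 in LFD, 5.54% ± 0.954 in HFD and 3.89% ± 0.341 in SW, and that of Cers4 was 6.54% ± 0.481, 3.66% ± 1.01 and 4.01% ± 0.746. In LFD mice Cers4 thus held a larger share than Cers6, and in HFD mice the order of their means was the other way, with ranges that overlapped. Length was taken from the longest transcript, which is 9.475 kb for Cers4, so its share would be larger if shorter transcripts prevailed.

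**Figure D2:**
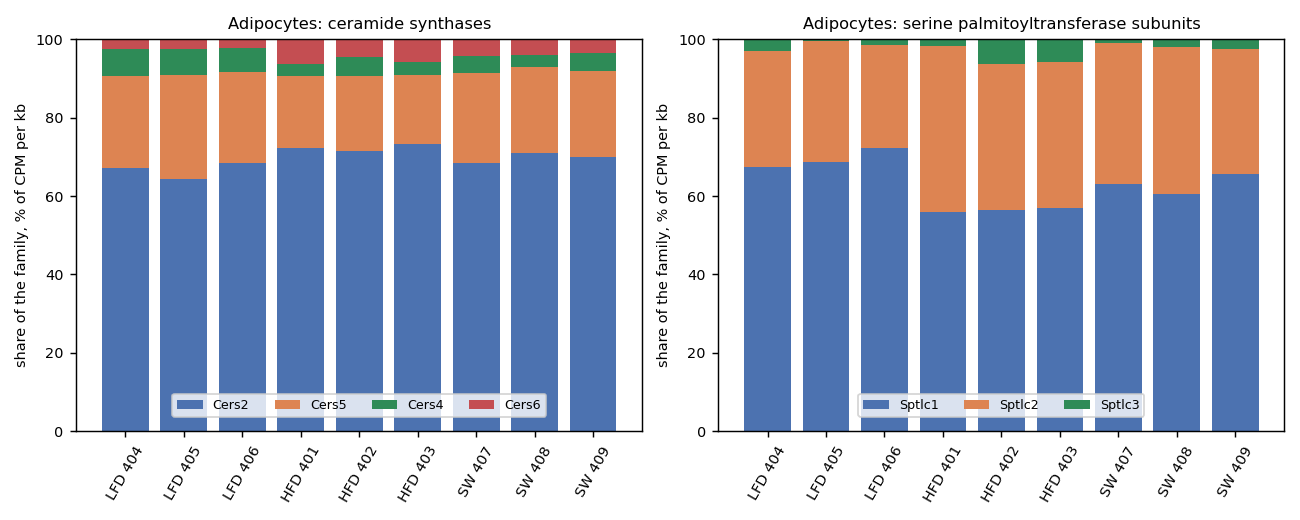
Share of each gene in the summed CPM per kilobase of its family (y axis, percent, from 0) in each adipocyte library, for 4 ceramide synthases and 3 serine palmitoyltransferase subunits. Cers2 and Cers5 fill most of the first family, Cers6 takes 4.47% to 6.29% in HFD against 2.23% to 2.43% in LFD libraries, and Sptlc2 takes a larger share in each HFD than in each LFD library.

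Degs1, the desaturase of the last step, was the most abundant member per kilobase, at 124.0, 118.4 and 131.9 CPM per kb in LFD, HFD and SW adipocytes. Its levels were 272.3, 276.5 and 213.1 CPM in LFD, 233.8, 263.3 and 230.6 CPM in HFD and 330.9, 231.8 and 247.6 CPM in SW. The 3 diets overlapped and no difference passed (HFD to LFD log2 -0.07, adjusted p = 0.762). In LFD adipocytes the order per kilobase after Degs1 was Cers2, Cers5, Sptlc1, Sgms1, Ugcg, Sptlc2, Cers4, Cers6 and Sptlc3, and among neighbours only Sgms1 and Ugcg overlapped.

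Sgms1 and Ugcg, which compete for ceramide, moved in opposite directions with the HFD. Sgms1 measured 53.4, 55.6 and 52.9 CPM in LFD, 91.9, 68.4 and 72.3 CPM in HFD and 48.9, 54.5 and 43.8 CPM in SW adipocytes. The HFD libraries lay above all others, and SW overlapped with LFD. The rise in HFD was 1.43-fold (log2 0.52, standard error 0.13, adjusted p = 0.00883). SW was below HFD by log2 -0.66 (standard error 0.13, adjusted p = 0.00867), and SW did not pass against LFD (log2 -0.14, adjusted p = 0.526).

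Ugcg measured 47.1, 54.7 and 50.2 CPM in LFD, 36.0, 27.2 and 31.7 CPM in HFD and 38.3, 40.2 and 33.3 CPM in SW adipocytes. The LFD libraries lay above all others. HFD was below LFD by log2 -0.69 (standard error 0.13, adjusted p = 0.00191). SW did not pass against HFD (log2 0.24, adjusted p = 0.181) and was lower than LFD (log2 -0.45, standard error 0.13, adjusted p = 0.0432). That last call passed in 5 of 13 alternatives and was lost without any one of the 3 LFD or 3 SW libraries.

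After the diet switch, 2 of the 10 members were called between SW and HFD adipocytes, Sgms1 and Cers6, both lower, beside 31.4% of all genes (15.9% called lower). The libraries of these diets lay apart for 4 members and 48.6% of all genes. Between SW and LFD adipocytes 2 were called, Cers6 higher and Ugcg lower, beside 17.1% of all genes (10.9% higher and 6.18% lower). Here 5 members and 36.7% of all genes had groups that lay apart. Without SW library 407, Cers6 (log2 -0.6262, adjusted p = 0.0263) and Sgms1 (log2 -0.6548, adjusted p = 0.0195) still passed against HFD and Cers6 against LFD (log2 0.8732, adjusted p = 0.00789), and Ugcg did not pass against LFD (adjusted p = 0.0698). These comparisons share the HFD and LFD libraries with the first one. The group mean of SW lay between those of LFD and HFD for 7 members, above both for Cers5 and Degs1 and below both for Sgms1. In the contrast of HFD and SW together against LFD, Sptlc2, Cers2 and Cers6 were higher and Sptlc1, Cers4 and Ugcg lower, beside 40.1% of all genes (20.7% higher and 19.4% lower). Cers6 (log2 1.22, adjusted p = 0.000138) and Ugcg (log2 -0.57, adjusted p = 0.00306) passed there in all 15 alternatives. Cers4 passed in 13 of them, Cers2 in 12, Sptlc2 in 9 and Sptlc1 in 4.

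**Figure D3:**
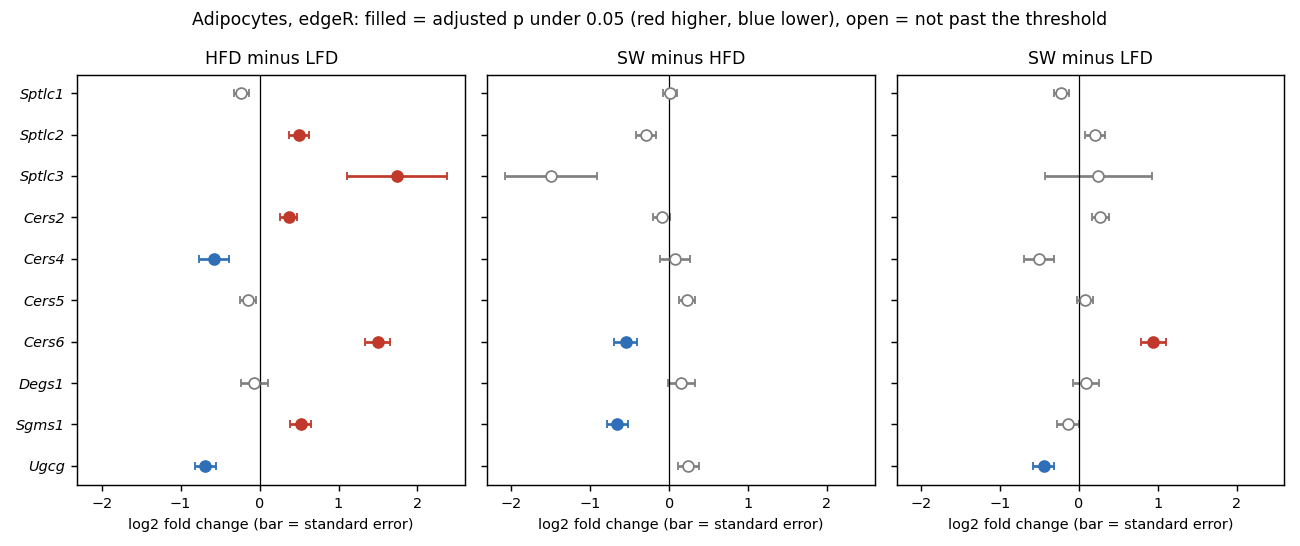
Log2 fold change of each member in adipocytes (x axis) for HFD minus LFD, SW minus HFD and SW minus LFD, with standard errors as bars and calls as filled points. Cers6 is called in all 3 panels, at 1.50, -0.55 and 0.94, and Sptlc3 has the widest bar.

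The other genes of sphingolipid metabolism were taken from lists of 55 genes, of which 47 passed the filter on low counts in adipocytes. Between HFD and LFD mice 22 were called higher and 8 lower, beside 26.5% and 25% of all genes, with a median log2 fold change of 0.27. The remaining genes of de novo synthesis fell or did not pass. Kdsr, the reductase of the second step, measured 42.8, 43.1 and 50.5 CPM in LFD, 22.4, 28.0 and 23.1 CPM in HFD and 30.8, 35.4 and 32.8 CPM in SW, and fell by 0.89 on the log2 scale in HFD (adjusted p = 0.000339). Its SW level was above HFD (log2 0.43, adjusted p = 0.0288) and below LFD (log2 -0.46, adjusted p = 0.032). Sptssb, a small activating subunit of serine palmitoyltransferase, had 138, 77 and 265 counts in LFD, 0, 0 and 14 in HFD and 0, 1 and 54 in SW libraries. Its level was uneven, at 3.97 to 34.9 CPM in LFD, 0 to 0.626 CPM in HFD and 0 to 3.86 CPM in SW. It was called lower in HFD (adjusted p = 0.00573). The related subunit Sptssa did not pass (log2 0.20, adjusted p = 0.16).

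Of the 3 inhibitors of serine palmitoyltransferase, Ormdl1 was higher in HFD (log2 0.63, adjusted p = 0.0027), whereas Ormdl2 (log2 -0.52, adjusted p = 0.0568) and Ormdl3 (log2 -0.35, adjusted p = 0.141) did not pass. Ormdl2 was higher in SW than in HFD adipocytes (log2 0.68, adjusted p = 0.0303). Cert1, the carrier of ceramide to the Golgi, did not pass in HFD (log2 0.22, adjusted p = 0.173), and Sgms2, the plasma membrane sphingomyelin synthase, was higher (log2 0.60, adjusted p = 0.00768).

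Glycosphingolipid synthesis after Ugcg and glycosphingolipid breakdown were higher for most genes tested. Of 5 genes of glycosphingolipid synthesis tested, 4 were called higher in HFD and none lower. They included the lactosylceramide synthases B4galt5 (log2 2.37) and B4galt6 (log2 1.89) and the ganglioside synthase B4galnt1 (log2 2.61), while Ugcg itself was lower. B4galnt1 measured 5.23, 8.41 and 4.75 CPM in LFD, 39.9, 36.0 and 41.4 CPM in HFD and 56.1, 32.4 and 29.8 CPM in SW adipocytes. Of 11 genes of glycosphingolipid breakdown, most of them lysosomal, 8 were called higher and none lower. The largest change was that of Gla, the alpha-galactosidase A (log2 2.90, adjusted p = 6.26e-06).

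Ceramidases and receptors were mixed. Asah1, the acid ceramidase, measured 72.5, 56.3 and 61.1 CPM in LFD, 303.3, 233.2 and 269.0 CPM in HFD and 118.4, 160.9 and 138.6 CPM in SW, with no overlap between diets. It rose by log2 2.09 in HFD (adjusted p = 1.35e-05) and fell by 0.95 on the log2 scale from HFD to SW (adjusted p = 0.00546). The alkaline ceramidase Acer3 was higher (log2 1.90) and 1 of the 4 ceramidases tested was lower. Of 4 sphingosine 1-phosphate receptors tested, S1pr2 was higher (log2 2.08) and 2 were lower. Of 4 sphingomyelinases, 2 were higher and 2 lower. Neither adiponectin receptor passed.

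The same 47 genes gave 3 higher and 9 lower calls between SW and HFD, beside 15.6% and 15.9% of all genes. Between SW and LFD they gave 18 higher and 3 lower calls, beside 10.9% and 6.18%. Between SW and LFD, 7 of the 11 glycosphingolipid breakdown genes and 3 of the 5 glycosphingolipid synthesis genes were higher. The macrophage markers named above had a median log2 fold change of 3.02 in HFD and 2.57 in SW against LFD adipocytes. The part of macrophage RNA in the changes of these genes was not tested. The 8 genes that did not pass the filter were Cers1, Cers3, St8sia1, Ugt8a, Gal3st1, Acer1, Sgpp2 and S1pr5. Cers1 and Cers3, the remaining ceramide synthases, had 0 to 7 and 0 to 17 counts in the adipocyte libraries.

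**Figure D4:**
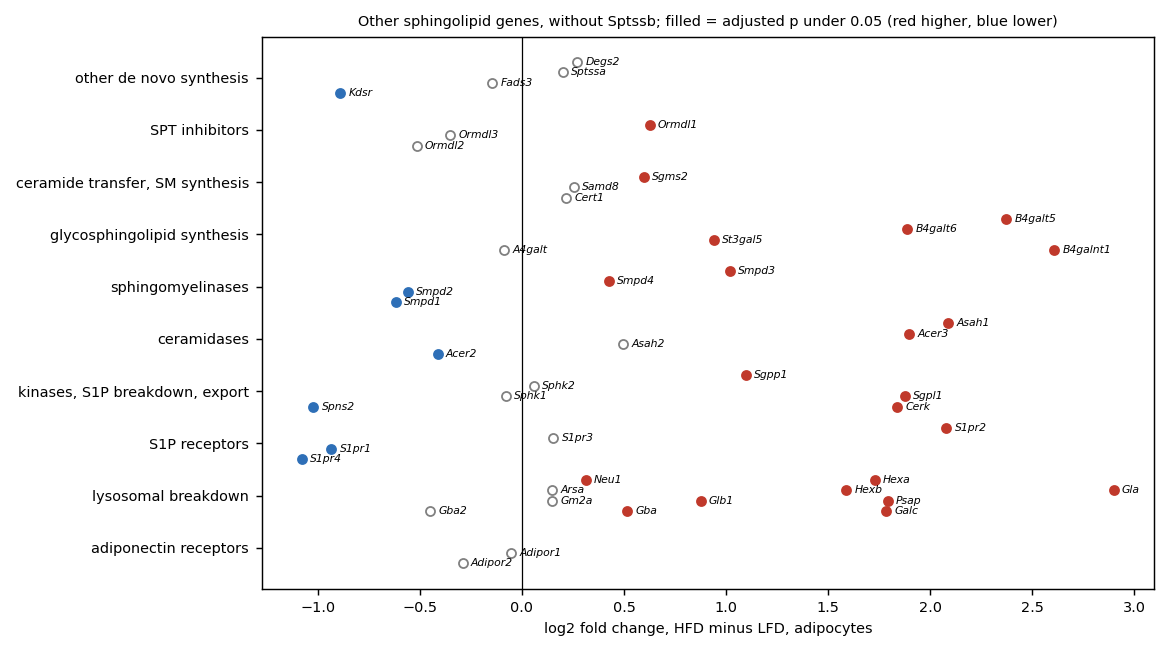
Log2 fold change between HFD and LFD adipocytes (x axis) of the other sphingolipid genes tested, in rows by step, with calls filled (red higher, blue lower) and Sptssb left out since 2 HFD libraries had no count. The rows labelled lysosomal breakdown and glycosphingolipid synthesis hold calls to the right only, up to 2.90 for Gla, and Kdsr lies at -0.89.

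For some SVC libraries of HFD and LFD mice the labels name only a single run, and for every SW one also a paired-end run. The part of read layout in the SVC values was not tested. Among the SVC, HFD libraries 212 and 411 differed widely. The mitochondrial share of counts was 6.34% in the first and 33.5% in the second, that of haemoglobin transcripts 0.287% and 3.09%, and the chi-square per degree of freedom between them was 376, against 25.5 to 59.9 between SW libraries. Between SW and HFD mice 4 of the 9 members tested were called, beside 17.5% of 16319 genes (5.71% higher and 11.7% lower). The values of the diets lay apart for 6 of the 9 members and 58.6% of all genes. Ugcg, Cers6 and Sptlc2 were lower in SW and Cers4 was higher. No member was called without HFD library 212 or without any one of the 3 SW libraries, and 5 were called without HFD library 411. All genes called numbered 503 without HFD library 212, 0, 0 and 593 without SW libraries 412, 413 and 414, and 6213 without HFD library 411, against 2849 with every library. Where edgeR called 0, an unadjusted p under 0.05 was reached by 4217 and 5435 genes.

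Ugcg measured 33.5 and 12.3 CPM in HFD and 2.89, 5.33 and 2.85 CPM in SW cells, with 7.33 CPM in the LFD library. Both HFD libraries lay above the others. The SW to HFD difference was log2 -2.61 (standard error 0.53, adjusted p = 0.0381). Cers6 measured 48.3 and 23.7 CPM in HFD, 5.77, 10.7 and 7.01 CPM in SW and 6.11 CPM in LFD cells, a difference between SW and HFD of log2 -2.19 (standard error 0.42, adjusted p = 0.0372). The LFD value of Cers6 lay within the range of SW.

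Sptlc2 measured 74.1 and 39.2 CPM in HFD, 22.3, 26.7 and 23.2 CPM in SW and 24.8 CPM in LFD cells (SW to HFD log2 -1.23, standard error 0.31, adjusted p = 0.0448). Sgms1 was also higher in both HFD libraries than in the others, with 55.6 and 26.4 CPM in HFD and 20.6, 23.7 and 13.7 CPM in SW, but did not pass (log2 -1.08, adjusted p = 0.0902). Library 212 was the higher HFD library for all 4 of these genes. Without it the SW to HFD difference was log2 -1.64 for Ugcg, -1.51 for Cers6 and -0.63 for Sptlc2.

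Cers4 ran the other way, with nearly equal values of 11.8 and 11.9 CPM in HFD, 24.7, 22.6 and 23.7 CPM in SW and 41.2 CPM in LFD cells. SW was 1.99-fold higher than HFD (log2 0.99, standard error 0.22, adjusted p = 0.0398). Without library 212 the difference was log2 1.06 (adjusted p = 0.0666). Sptlc1, Cers2, Cers5 and Degs1 did not pass, with log2 fold changes between -0.17 and 0.47.

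Between HFD and LFD cells of the SVC, Cers4 was the only one of the 9 members tested that was called (log2 -1.79, standard error 0.28, adjusted p = 0.0202), beside 11.4% of all genes (4.96% higher and 6.48% lower). LFD is 1 library here, assumed to vary like the other groups. Fitted differences that did not pass were log2 2.56 for Cers6 (adjusted p = 0.0561), 2.09 for Sgms1 (adjusted p = 0.0724), 1.64 for Ugcg (adjusted p = 0.187), 1.19 for Sptlc2 (adjusted p = 0.121) and 0.76 for Degs1 (adjusted p = 0.125). The median was 0.76 over the 9 members and 0.33 over all genes. Cers4 was lost with the fit of only these 2 diets. Without HFD library 411 each of these diets is 1 library, so calls from that fit rest on no spread within either diet. Over 9 alternatives, that fit included, Cers6 passed in 5 and Sgms1 in 3. Marker levels differed too: the 8 fibroblast and progenitor markers summed to 16849 CPM in LFD, 5157 to 7275 CPM in HFD and 9590 to 11228 CPM in SW libraries, and the macrophage markers to 8591 CPM, 10592 to 19675 CPM and 14078 to 20459 CPM. Their part in the SVC values was not tested.

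The fractions were compared in 1 fit of all 15 libraries over 17441 genes. In SW mice 8 members differed between adipocytes and SVC, beside 68.4% of all genes (32.8% higher and 35.6% lower in adipocytes). The fractions lay apart for 9 members and 70.8% of all genes. Ugcg (log2 2.85), Cers6 (1.46), Sptlc2 (1.05), Sgms1 (0.91), Degs1 (0.66) and Sptlc3 were higher in adipocytes, and Cers2 (log2 -0.55) and Cers5 (log2 -0.55) were lower, with adjusted p from 5.49e-06 to 0.00438. Cers2 did not pass without SW library 414 of the SVC (adjusted p = 0.0611). Sptlc3 had no count in the SW and LFD libraries of the SVC. There 3 counts, an assumed upper bound for a count of 0, would be 0.152 to 0.65 CPM on the scale of all 15 libraries. On that scale SW adipocytes measured 0.749, 1.39 and 1.61 CPM. Their mean was 4.14-fold the mean floor of the SW libraries of the SVC, with 3 counts per library. Such floors cover counting error only.

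In HFD mice only Sptlc3 and Cers4 differed between the fractions, both higher in adipocytes, beside 29.1% of all genes (12.9% higher). The fractions lay apart for 5 members and 51.5% of all genes. Sptlc3 had 262 counts in the 3 adipocyte libraries and 3 in the 2 SVC libraries, a ratio of 37.7 per scaled count (95% exact interval 12.8 to 184, counting error only). Cers4 was 2.61-fold higher in adipocytes (log2 1.38, standard error 0.22, adjusted p = 0.000837). Cers6 (log2 -0.03, adjusted p = 0.96) and Ugcg (log2 0.18, adjusted p = 0.709) did not pass there. Without SVC library 212, which leaves a lone HFD library of the SVC, the differences of Sptlc2, Sgms1 and Ugcg were log2 0.67, 1.16 and 0.97.

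The change from HFD to SW was itself compared between fractions with an interaction term, and 4 members passed, beside 27.1% of all genes (15.7% with a positive and 11.4% with a negative difference). For Ugcg the change in adipocytes minus that in SVC was log2 2.67 (standard error 0.45, adjusted p = 0.00194). The SVC fell and the adipocytes did not pass in either direction. For Cers6 this difference was log2 1.48 (standard error 0.38, adjusted p = 0.0125), with a smaller fall in adipocytes (log2 -0.55) than in SVC (log2 -2.19). For Sptlc2 it was log2 0.81 (standard error 0.28, adjusted p = 0.0453). Sptlc2 changed by log2 -0.29 in adipocytes, which did not pass, and by log2 -1.23 in SVC. For Cers4 the difference was log2 -1.03 (standard error 0.29, adjusted p = 0.0181), with a rise in SVC only. Without SVC library 212, Ugcg alone passed, and the Sptlc2 difference passed in 6 of 18 alternatives.

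The HFD to LFD change was compared between the fractions in the same way, and 3 members passed, beside 24.9% of all genes (13.1% with a positive and 11.8% with a negative difference). For Ugcg it was lower in adipocytes than in SVC by log2 -2.13 (standard error 0.58, adjusted p = 0.0182), and for Sgms1 by log2 -1.39 (standard error 0.47, adjusted p = 0.0448). For Cers4 it was higher by log2 1.38 (standard error 0.34, adjusted p = 0.0103). Cers4 passed in all 15 alternatives, Ugcg in 14 and Sgms1 in 6, and without SVC library 212 the values were log2 1.3, -1.339 and -0.8498 for Cers4, Ugcg and Sgms1. Of the macrophage markers 10 of 11, and of the fibroblast and progenitor markers 7 of 8, were called with a positive difference in the same comparison, and their part was not tested.

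**Figure D5:**
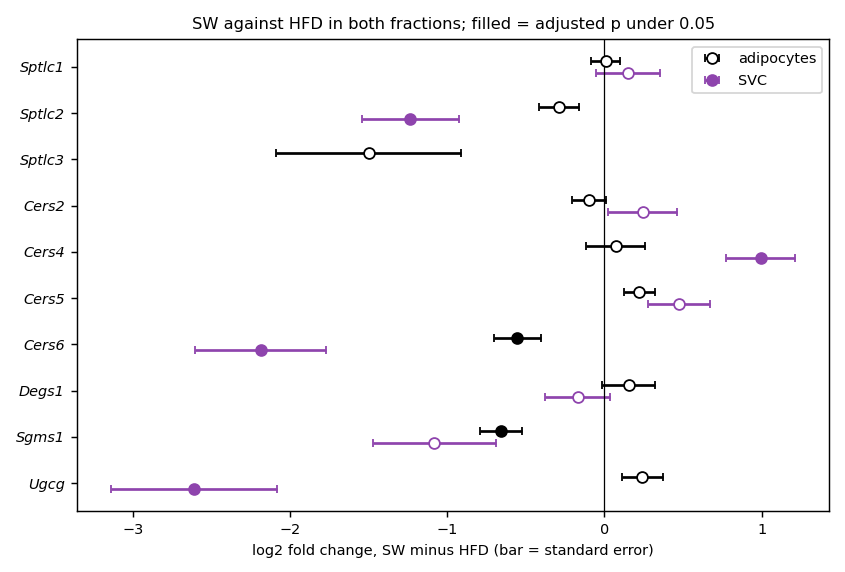
Log2 fold change from HFD to SW (x axis) in adipocytes (black) and SVC (purple) for each member, with standard errors as bars and calls as filled points; Sptlc3 was not tested in the SVC. Ugcg and Cers6 lie at -2.61 and -2.19 in the SVC against 0.24 and -0.55 in adipocytes, and Cers4 lies at 0.99 against 0.07.

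Genes with the pattern most like that of the 3 members with the largest called changes were sought across the 9 adipocyte libraries, by the root mean square difference of centred log2 CPM. Nearest to Cers6 were Tlr4, a receptor of bacterial lipopolysaccharide (0.0787), and Rassf5 (0.0823). Nearest to Ugcg were Pola2, a subunit of DNA polymerase alpha (0.0747), and Fam124a (0.0797). Nearest to Sptlc3 were Xpnpep3 (0.351) and Mme (0.372), a likeness several times looser than the others. These are descriptions over libraries that share 3 diets.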

How the data were processed

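The authors sequenced RNA of adipocytes and SVC, aligned reads with Bowtie2 and quantified genes with RSEM. The deposited tables hold RSEM's estimated counts as whole numbers, not normalized. Per the labels the genome build was mm9; versions and the annotation release are not given in the sources used here. The labels list 18 libraries in 26 records, 8 of them with 2 runs, and whether runs were added up is not stated. Runs are labelled paired-end or single. Some SVC libraries of HFD and LFD mice have only a single run, while every SVC library of SW mice has both kinds. Every adipocyte library has a paired-end run. Read layout thus differed in part with diet in the SVC and between fractions, and its part in the differences was not tested. Column names give fraction, diet and a number found in no label, so columns were used as replicates of a group. Another 3 columns of the SVC table were not used because their names match no group. The labels list 3 SVC libraries per diet, so 2 of LFD and 1 of HFD are not analysed here, and whether those columns hold them is not known. The study gives 3 biological replicates per group, but no label ties a library to a mouse, so p-values measure the spread between these libraries. No replicates of a group agreed within counting noise (chi-square per degree of freedom 12.8 or more).

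Each fraction was fitted with edgeR 4.0.16 (R 4.3.3), after filterByExpr at a minimum count of 10, with TMM factors and a robust quasi-likelihood fit over all diets without covariates. Benjamini-Hochberg adjusted p-values under 0.05 were called. Fraction comparisons used 1 fit of all 15 libraries. The study's contrast weights can be read with the heavier weight on LFD or on HFD, and here it was put on LFD. The tests of HFD against LFD in the SVC, and of that change between fractions, were added after seeing the data. The scripts were tested on simulated data, drawn with the spread fitted to genes of like level. Those data held no library that stood apart from its group, so the test checks the scripts and not the calls. RSEM divides reads shared by similar transcripts. Totals set the precision, and 3 of the 4 LFD libraries are the least deep. The members, lists and comparisons were chosen with earlier results of these data known. All members were named. Other pathway genes were named by 3 rules: the 8 largest called changes between HFD and LFD adipocytes whose mean log2 CPM was 1 or more, the genes under the filter, and Ormdl1, Ormdl2, Ormdl3, Kdsr, Sptssa, Cert1, Sgms2 and Asah1. For likeness, 0.5 CPM was added and a mean log2 CPM of 3 or more was required. Transcript lengths are from GENCODE M21, promoters from RefSeq on GRCm38.p6. Markers of T cells, B cells, endothelial, mesothelial, macrophage, adipocyte and fibroblast or progenitor cells were summed. Cert1 and Adgre1 are listed under older symbols. Acer2 has 2 identifiers, of which ENSMUSG00000038007 was used.

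Alternatives were DESeq2 1.42.0, limma-voom (limma 3.58.1), RLE and upper-quartile factors, no filter, at least 10 counts in every library, a fit of the compared groups alone, and removal of each library in turn. Tables were handled with pandas 2.3.3 and numpy 2.4.6 in Python 3.11.15 and drawn with matplotlib 3.10.9.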

Additional observations from a re-analysis of the deposited data

Results flagged for a closer look

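For 4 members, adipocytes and SVC changed unequally from HFD to SW by the interaction term in edgeR over 15 libraries. The difference (adipocytes minus SVC, log2) was 2.674 for Ugcg (adjusted p = 0.00194), 1.485 for Cers6 (adjusted p = 0.0125), 0.8125 for Sptlc2 (adjusted p = 0.0453) and -1.027 for Cers4 (adjusted p = 0.0181). Over 18 alternatives it passed in 18 for Ugcg, 17 for Cers6, 17 for Cers4 and 6 for Sptlc2. Each of these values rests on 2 HFD libraries of the SVC that differed from each other by more than any other pair of a group, and without library 212 they were 1.867 for Ugcg, 0.9755 for Cers6, 0.3779 for Sptlc2 and -0.9449 for Cers4. The part of that library's makeup in the difference was not tested.

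The HFD to LFD change also differed between the fractions by an interaction term in the same fit, for 3 members. The difference (adipocytes minus SVC, log2) was -2.133 for Ugcg (adjusted p = 0.0182), -1.385 for Sgms1 (adjusted p = 0.0448) and 1.378 for Cers4 (adjusted p = 0.0103). In every HFD library of adipocytes Ugcg lay below every LFD library, while both HFD libraries of the SVC lay above the LFD one. These values rest on 1 LFD library of the SVC, assumed to vary like the other groups, and Sgms1 passed in 6 of 15 alternatives.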

How the results depend on the processing

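No paired analysis was possible because the columns carry no replicate number of the labels. Of the comparisons of single members under alternatives, 1152 kept their direction and side of the threshold, 88 no longer passed, 25 passed anew, and 35 changed sign, all of them differences called in neither setting. Leaving out 1 library in turn gave 4 to 6 members called (5757 to 7250 of all genes) for HFD against LFD in adipocytes (4 without HFD library 403 or LFD library 405), 1 to 2 (1522 to 4290) for SW against HFD, 1 (1678 to 2176) for SW against LFD, 3 to 6 (4069 to 6542) for HFD and SW against LFD, 0 to 5 (0 to 6213) for SW against HFD in the SVC, 1 to 6 (2225 to 4694) for HFD against LFD in the SVC, 2 to 5 (2528 to 7044) for HFD adipocytes against SVC, 7 to 8 (10690 to 11558) for SW adipocytes against SVC, 1 to 4 (2936 to 6622) for the interaction of SW against HFD and 2 to 6 (3297 to 6233) for that of HFD against LFD. The lone LFD library of the SVC, or a lone remaining HFD one, was assumed to vary like the other groups. The counts of members that follow stand without those of all genes, so they cannot be told apart from a change in the rate of calls over all genes. For SW against LFD the count was 1 with no filter and 1 with only the groups compared (Ugcg lost). For SW against HFD in the SVC it was 2 with limma-voom. For HFD adipocytes against SVC it was 1 with at least 10 counts in every library, since Sptlc3 could not be tested. For HFD against LFD in the SVC it was 3 with DESeq2, 3 with no filter and 2 with at least 10 counts in every library, against 1, and for the interaction of HFD against LFD it was 1 with limma-voom, against 3.

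Signs that changed with every library kept were those of Degs1 for HFD and SW against LFD with upper-quartile factors (-0.06594), Sptlc1 for SW against HFD with no filter (-0.0325), Sptlc1 for HFD adipocytes against SVC with upper-quartile factors (-0.02952) and Cers6 in that comparison with limma-voom (0.01459). For HFD against LFD in the SVC, Sptlc1 was -0.08293 with DESeq2, -0.08274 with RLE factors, -0.1103 with upper-quartile factors and -0.09419 with only the groups compared. For the interaction of HFD against LFD, Sptlc1 was 0.08164 with DESeq2 and 0.07918 with RLE factors, and Sptlc3 was 0.3374 with DESeq2 and 1.856 with limma-voom. With 1 library left out, ranges that crossed 0 were, for HFD against LFD, Degs1 (-0.1762 to 0.001682); for SW against HFD, Sptlc1 (-0.04445 to 0.035), Cers4 (-0.06932 to 0.2905) and Degs1 (-0.01704 to 0.2437); for SW against LFD, Degs1 (-0.08331 to 0.1838) and Sptlc3 (-0.3573 to 1.013); and for HFD and SW against LFD, Cers5 (-0.05948 to 0.01106) and Degs1 (-0.1001 to 0.07836). They were Degs1 (-0.3216 to 0.08061) for SW against HFD in the SVC, Sptlc1 (-0.0774 to 0.02368) for HFD against LFD in the SVC and Sgms1 (-0.2514 to 0.7569) for the interaction. For HFD adipocytes against SVC they were Sptlc1 (-0.07571 to 0.2343), Sptlc2 (-0.088 to 0.6701), Cers2 (-0.2813 to 0.07818), Cers6 (-0.3914 to 0.4717) and Ugcg (-0.3168 to 0.9698). The cause was not tested. Depth limits what can be said of Sptlc3, with 8 to 16 counts in LFD adipocytes and 0 to 2 in the SVC.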

Other observations

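Beside the macrophage and adipocyte markers, 4 of 6 endothelial and 4 of 6 mesothelial markers were called lower in HFD than in LFD adipocytes, with medians of log2 -0.83 and -1.79, and 3 of 8 fibroblast and progenitor markers were called higher and 1 lower. Of 5 T cell and 5 B cell markers tested, 0 were called in that comparison by edgeR, DESeq2 or limma-voom, and 0 had an unadjusted p under 0.05.

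In the SVC, 5 of 48 other sphingolipid genes tested were called higher and 7 lower in SW than in HFD mice, beside 5.71% and 11.7% of all genes. Sptssa (log2 -1.90), Ormdl1 (-1.72), Cert1 (-2.27) and Asah1 (-1.04) were among the lower ones, and these calls rest on the same HFD libraries as those of the members.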
